A study of Mus musculus with 12 samples.

Results

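The genes described here are 10 transcripts of the hepatic stellate cell and of the fibrous matrix of the liver: Lrat, Des, Reln, Rgs5, Ecm1, Col1a1, Col1a2, Col3a1, Dcn and Lum. They were chosen by gene symbol, with no measured value in the rule. Each had exactly 1 probe set, so that they make up 10 of the 21212 probe sets on the array. RNA was measured in the large liver lobe of 12 mice with 1 Affymetrix array per mouse, in 4 groups of 3: KK males, KK females, C57BL/6J males and C57BL/6J females. KK is an inbred strain prone to obesity and insulin resistance; its labels read KK/HIJ in one field and KK/J in another. C57BL/6J is a common inbred laboratory strain. All mice were 8 weeks old and on chow, were kept alone for 3 days, fasted for 4 hours and had their livers flushed with PBS. No group carried a transgene or received a drug, and each group rests on 3 animals. Values are log2 expression, and differences and errors are on that scale.

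Hepatic stellate cells lie between the hepatocytes and the sinusoidal endothelium and store most of the body's vitamin A as retinyl esters in lipid droplets. When the liver is injured they lose these droplets, become contractile and turn into the main source of fibrillar collagen in the scar. In a healthy liver they are a small share of all cells, so their transcripts reach a whole-liver array diluted by those of hepatocytes. In such bulk samples fewer cells of a type and less RNA per cell cannot be told apart.

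Several facts of the arrays bear on what follows. Array medians lay between 5.90 and 6.03, and the narrowest and widest interquartile ranges were 2.64 (KK male 2) and 2.97 (KK female 1). Xist read 4.21 to 4.70 in the 6 males and 10.29 to 10.95 in the 6 females. The summed level of 9 hepatocyte markers ran from 16.38 to 16.46 over all 12 arrays. In C57BL/6J it was 16.45 to 16.46 in males, against 16.38 to 16.43 in females. Of the 9, limma called 1 higher and 1 lower in KK, and Apoa1 higher in males (0.20, adjusted p = 0.0452). The male call was lost in 11 of the 12 fits that left out 1 array. The level of an absent transcript was read from 3 Y-linked genes in the 6 females, where it lay between 3.79 and 4.66. Probe sets differ in sensitivity, so levels are compared between mice and not between genes.

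Of the 10 genes, 3 differed between the strains over both sexes: Rgs5 was higher in KK, and Lum and Col3a1 were lower. The same limma fit called 11.7% of all probe sets in this comparison, 5.42% higher and 6.31% lower. A further set of 2, Ecm1 and Dcn, was lower in males than in females over both strains, where 3.66% of all probe sets were called, 1.09% higher and 2.57% lower. The remaining 5 genes, Lrat, Des, Reln, Col1a1 and Col1a2, passed neither test. The median strain difference of the 10 genes was -0.10, against 0.01 over all probe sets, and the median sex difference was -0.22, against 0.02.

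**Figure D1:**
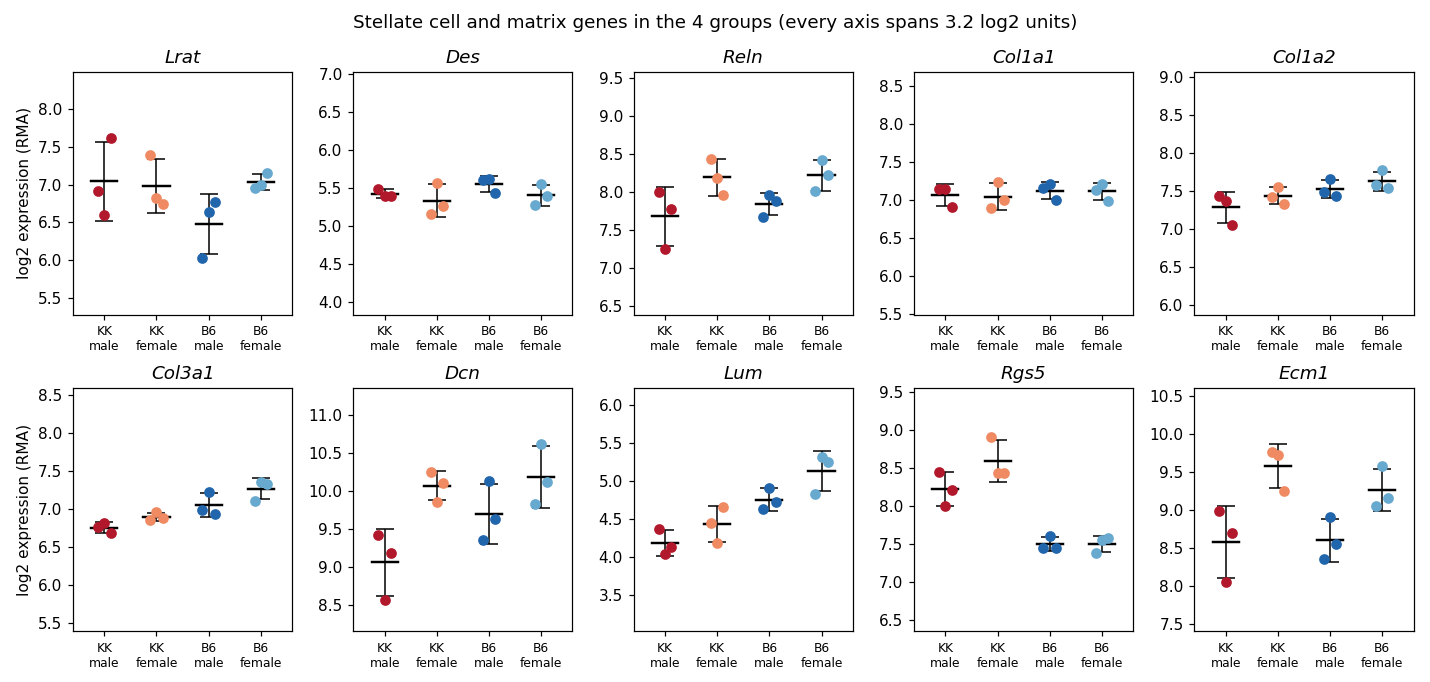
Log2 expression of the 10 stellate cell and matrix genes in each mouse; each point is 1 mouse, the bar is the group mean and the whiskers are 1 SD over 3 mice. B6 stands for C57BL/6J, and every panel spans the same number of log2 units. The 6 KK points of Rgs5 all lie above the 6 C57BL/6J points, and the 6 male points of Ecm1 all lie below the 6 female points.

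Rgs5 showed the largest strain difference of the 10 genes. It encodes a regulator of G protein signalling that shortens signals from receptors coupled to Gq and Gi, and it marks pericytes, of which stellate cells are the form found in liver. Rgs5 read 8.44, 8.00 and 8.21 in KK males and 8.90, 8.43 and 8.43 in KK females, against 7.44, 7.60 and 7.45 in C57BL/6J males and 7.38, 7.54 and 7.58 in C57BL/6J females. The lowest KK mouse thus stood above the highest C57BL/6J mouse, a separation that 5.98% of all probe sets showed between the strains. The difference was 0.90 (SE 0.10, 1.87-fold, adjusted p = 6.07e-05, n = 6 per strain), with a 95% interval of 0.69 to 1.11. It was 0.72 in males (SE 0.14, adjusted p = 0.00859) and 1.09 in females (SE 0.14, adjusted p = 0.000414). The 4 group means fell in the order KK females, KK males, C57BL/6J females, C57BL/6J males, and only the step between the strains was free of overlap. Within KK, males read 8.22 ± 0.22 and females 8.59 ± 0.27 (SD, n = 3 each), a difference of -0.37 that did not pass (adjusted p = 0.216). The male strain difference less the female one was -0.37 with an interval of -0.79 to 0.05 (adjusted p = 0.827), so a different strain effect in the sexes was not shown.

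The bases before the start of Rgs5 are shown because it is the gene that separates the strains. In the RefSeq annotation of GRCm38.p6 they span chr1:169655251-169655500 on the plus strand, and the capitals mark the single motif match, a CCAAT box read on the other strand. Motifs were searched on both strands and did not overlap one another in the sequences printed.
Rgs5: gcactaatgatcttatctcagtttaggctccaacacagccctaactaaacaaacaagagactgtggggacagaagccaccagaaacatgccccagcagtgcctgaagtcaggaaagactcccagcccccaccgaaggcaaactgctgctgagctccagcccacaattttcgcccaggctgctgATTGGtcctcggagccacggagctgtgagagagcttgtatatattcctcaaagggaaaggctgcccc
The CCAAT match begins at -67, counted from the start site. CCAAT occurs in 33.8% of the 32851 promoters of the same length, so its presence here is a description and no more. TATAAA (12.4% of promoters), the GC box GGGCGG (32.7%), the AP-1 motif TGANTCA (6.75%), the STAT5-type motif TTCNNNGAA (7.02%) and the CArG box (1.47%) had no match in this window.

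Rgs4, the next gene of the family and the neighbour of Rgs5 on chromosome 1, moved the same way. It averaged 5.96 in KK males and 6.24 in KK females, against 5.42 in C57BL/6J males and 5.49 in C57BL/6J females. The strain difference was 0.64 (SE 0.09, adjusted p = 0.000725), and its 6 KK values also lay above its 6 C57BL/6J values. Rgs5 and Rgs4 were the only called genes of 12 vascular smooth muscle markers, none of which fell, and the count was 2 without any single array. Over all probe sets, 11.7% were called between the strains, 5.42% higher in KK, and 5.98% showed no overlap. Both are also pericyte genes. The summed level of these 12 markers was 9.89 to 10.12 in KK males and 9.99 to 10.12 in KK females, against 9.62 to 9.79 in C57BL/6J males and 9.68 to 9.79 in C57BL/6J females. Rgs5 is part of that sum. Of the list, Pln and Casq2 read at or below the Y-linked ceiling on every array.

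The genes whose 12 values ran closest to those of Rgs5, each centred on its own mean, were Prelid2 (root-mean-square distance 0.131), Nnt (0.146) and Rtn4rl1 (0.157). Genes picked this way share the strain difference of Rgs5 by the choice itself. Nnt encodes a mitochondrial transhydrogenase, and C57BL/6J is known to carry a deletion in it. A link between Nnt and Rgs5 was not tested.

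The other general stellate cell genes did not separate the strains. Lrat, the acyltransferase that makes the stored retinyl esters, read 6.91, 6.60 and 7.61 in KK males and 7.39, 6.82 and 6.75 in KK females, against 6.03, 6.63 and 6.77 in C57BL/6J males and 6.95, 6.99 and 7.16 in C57BL/6J females. Its range within KK males alone was 1.01, so the strain difference of 0.26 (interval -0.13 to 0.65, adjusted p = 0.478) was within the spread of mice. C57BL/6J males held 2 of the 3 lowest values and KK male 2 the other. In C57BL/6J, the 3 males lay below the 3 females, but the difference of -0.56 did not pass (adjusted p = 0.611).

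Des, the muscle-type intermediate filament of stellate cells in rodents, varied least within groups among the stellate genes, with a pooled SD of 0.14. It read 5.49, 5.40 and 5.39 in KK males and 5.16, 5.57 and 5.27 in KK females, against 5.61, 5.62 and 5.43 in C57BL/6J males and 5.27, 5.55 and 5.39 in C57BL/6J females. The strains overlapped, with a difference of -0.10 (interval -0.26 to 0.07, adjusted p = 0.534). Males and females overlapped as well, at 0.12 (interval -0.04 to 0.28, adjusted p = 0.483).

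Reln encodes reelin, a large secreted glycoprotein best known for guiding neurons, which stellate cells make in liver. It read 8.00, 7.25 and 7.78 in KK males and 8.44, 8.18 and 7.95 in KK females, and 7.67, 7.96 and 7.88 in C57BL/6J males and 8.01, 8.42 and 8.22 in C57BL/6J females. The sex difference was -0.45 (SE 0.13, interval -0.73 to -0.17), with KK male 1 above KK female 3, and it did not pass (adjusted p = 0.0866). Without KK male 1, which had the highest value among KK males, it became -0.53 and passed (adjusted p = 0.0495). The strain difference was -0.09 (interval -0.37 to 0.19, adjusted p = 0.781). Of the other 2 measured genes of the reelin pathway, Vldlr, a reelin receptor, was lower in KK averaged over the sexes, at -0.46 (SE 0.08, adjusted p = 0.00227). Its group means were 5.24 in KK males and 5.28 in KK females, against 5.27 in C57BL/6J males and 6.18 in C57BL/6J females. Averaged over the strains it was lower in males, at -0.47 (adjusted p = 0.00615). Both averages rest on the high mean of the C57BL/6J females. The strain difference of Vldlr in males less that in females, 0.87, did not pass (adjusted p = 0.0872).

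Ecm1 was the clearest sex difference of the 10 genes. It encodes a secreted glycoprotein that, in mouse liver, holds latent TGF-beta inactive in the matrix. Ecm1 read 8.99, 8.06 and 8.70 in KK males, against 9.76, 9.73 and 9.26 in KK females. In C57BL/6J it read 8.35, 8.91 and 8.55 in males, against 9.05, 9.58 and 9.16 in females. The highest of the 6 males stood just below the lowest of the 6 females, a separation that 1.59% of all probe sets showed between the sexes. Males were lower, with a difference of -0.83 over both strains (SE 0.16, 1.78-fold, adjusted p = 0.0145, interval -1.19 to -0.47). The strains did not differ detectably, at 0.15 (interval -0.21 to 0.51, adjusted p = 0.703).

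In KK alone the sex difference of Ecm1 was -1.0 (SE 0.23, adjusted p = 0.0484), the single call among the 10 genes in a comparison where 2.17% of probe sets were called. That call ended when any of 8 arrays was left out: KK male 2 (-0.74, adjusted p = 0.157), KK male 3 (-1.06, 0.0689), KK female 1 (-0.91, 0.209), KK female 2 (-0.93, 0.097), or, with the difference itself unmoved, C57BL/6J male 1 (0.0554), male 3 (0.0707), female 1 (0.0652) or female 3 (0.0666). In C57BL/6J alone it was -0.66 (SE 0.23, adjusted p = 0.378), and none of the 10 genes was called there, where 1.03% of probe sets were. At an unadjusted p under 0.05, 4 of the 10 passed in limma's test in C57BL/6J. The 1.03% is not the share at that unadjusted threshold, which was not worked out. The male strain difference less the female one was -0.34 for Ecm1 (interval -1.06 to 0.38, adjusted p = 0.892). In that comparison limma called none of the 10 genes, with 0 at an unadjusted p under 0.05, and 0.141% of all probe sets.

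The bases before Ecm1 are shown beside those of Rgs5, since Ecm1 is the gene that separates the sexes. They span chr3:95739570-95739819 on the minus strand of GRCm38.p6 in RefSeq. The capitals mark, in this order, an AP-1 motif, a GC box and a TATA box.
Ecm1: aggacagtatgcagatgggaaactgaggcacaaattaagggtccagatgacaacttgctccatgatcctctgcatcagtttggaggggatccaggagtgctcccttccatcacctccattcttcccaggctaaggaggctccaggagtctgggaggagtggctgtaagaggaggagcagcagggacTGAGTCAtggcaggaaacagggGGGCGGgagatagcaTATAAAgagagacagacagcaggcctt
The matches begin at -64, -42 and -27 from the start site. Together, the motif searches found the TATA box in 2 of the 7 genes with a RefSeq promoter, Ecm1 and Col3a1, and the AP-1 motif in Ecm1 alone. No match of the STAT5-type motif or the CArG box was found in any of the 7, which are Lrat, Des, Reln, Col1a2, Col3a1, Rgs5 and Ecm1.

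**Figure D2:**
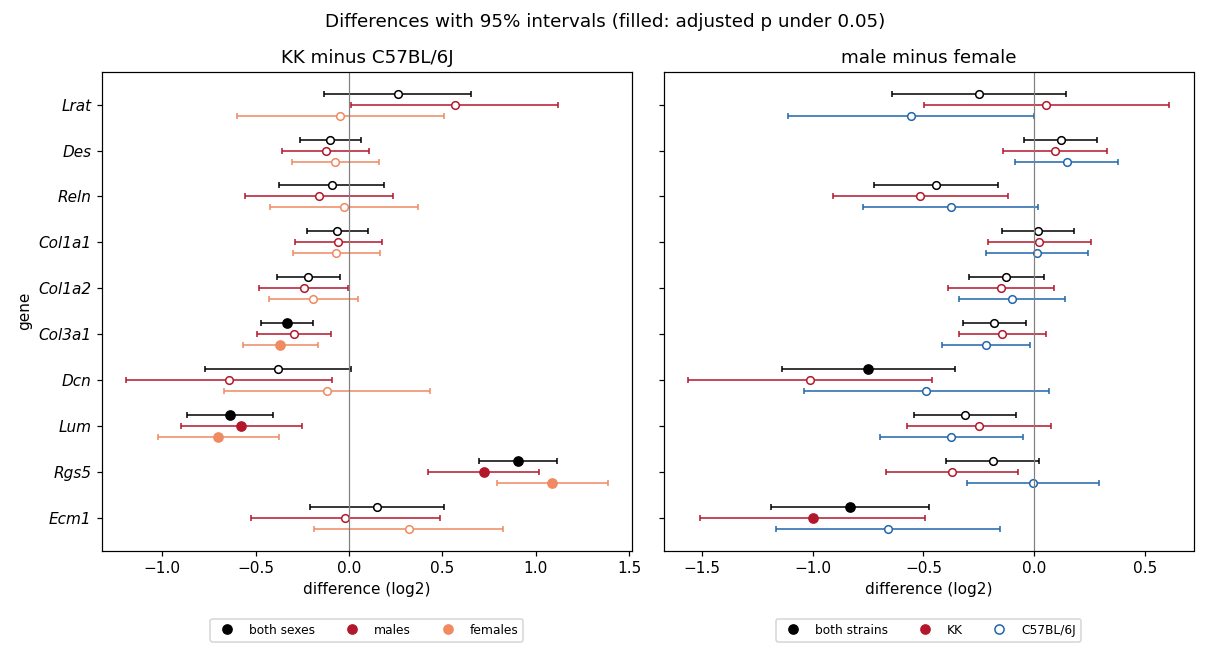
Differences of the 10 genes with their 95% intervals from the limma fit, on the log2 scale; KK minus C57BL/6J is on the left and male minus female on the right. Filled points passed at an adjusted p under 0.05. On the left, Rgs5 lies to the right of 0 in both sexes and Lum to the left in both; on the right, the filled points are Ecm1 over both strains and in KK and Dcn over both strains.

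The genes nearest to Ecm1 over the 12 mice were Hgf (root-mean-square distance 0.154), Bgn (0.155) and Prelp (0.161). Genes picked this way share the sex difference of Ecm1 by the choice itself. Hgf, the hepatocyte growth factor that stellate cells secrete, and Prelp are themselves stellate cell markers, while Bgn is a small proteoglycan. Males were lower for Hgf, at -0.84 (SE 0.20, adjusted p = 0.0391) and for Bgn, at -0.72 (SE 0.12, adjusted p = 0.00599). Prelp was at -0.55 and did not pass (adjusted p = 0.0655), but passed without KK female 3 (0.037) or C57BL/6J male 2 (0.0456). The call of Hgf was lost without KK female 1 or 2, C57BL/6J male 1 or 3, or any C57BL/6J female, with adjusted p-values of 0.0574 to 0.104.

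Among 30 measured stellate cell markers of the 31 in the list, 5 fell in males over both strains and none rose: Ecm1, Hgf, the PDGF receptor Pdgfra (-0.35, adjusted p = 0.0303), the collectin Colec10 (-0.41, 0.0379) and the potassium channel subunit Abcc9 (-0.42, 0.031). Over all probe sets, 2.57% were called lower in males and 1.09% higher. At an unadjusted p under 0.05 limma's test passed 16 of the list in either direction. The share of all probe sets at that unadjusted threshold was not worked out. The median over the list was -0.23, against 0.02 over all probe sets. The count rested on single arrays: it was 1 without KK female 1, C57BL/6J female 2, C57BL/6J female 3, C57BL/6J male 1 or C57BL/6J male 3, and 2 without KK male 2. Without KK female 3 Colec10 and Abcc9 lost their calls, and without KK male 1 Colec10 did. The summed level of the list was 12.18 to 12.36 in KK males, against 12.48 to 12.73 in KK females. In C57BL/6J it was 12.00 to 12.30 in males, against 12.29 to 12.49 in females. Between the strains, where 11.7% of all probe sets were called, 1 marker of the list rose, Rgs5, and 1 fell, Adamtsl2 (-0.20, adjusted p = 0.0242). The fall was lost without any of KK male 3, KK female 1, KK female 3, C57BL/6J male 1, C57BL/6J female 1 or C57BL/6J female 2. The number that rose was 2 without KK female 1 or C57BL/6J female 2 and 4 without KK female 3.

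Markers of other non-parenchymal cells were also lower in males, where 2.57% of all probe sets were called lower and 1.09% higher. Of 12 Kupffer cell markers, 11 fell, with a list median of -0.73, and of 14 sinusoidal endothelial markers 5 fell and none rose, with a median of -0.28. The Kupffer count was 7 when C57BL/6J male 1 or 3 was left out. It was 6 when KK male 1 or 2, or C57BL/6J female 1 or 3, was left out. The endothelial count was 9 without KK female 2, and 8 after quantile or loess normalization. The Kupffer sum was 11.26 to 11.64 in KK males, against 12.28 to 13.04 in KK females, and 11.75 to 12.36 in C57BL/6J males, against 12.26 to 12.46 in C57BL/6J females. The sexes thus overlapped in C57BL/6J but not in KK. For the male strain difference less the female one, the Kupffer list median was -0.69. In that comparison limma called none of the 12, with 9 at an unadjusted p under 0.05. The endothelial sum was 12.26 to 12.43 in KK males, against 12.48 to 12.84 in KK females, and 12.33 to 12.46 in C57BL/6J males, against 12.63 to 12.77 in C57BL/6J females. No marker of either list was at the Y-linked level on every array. Their part in the lower stellate cell transcripts of males was not tested. Of 12 portal fibroblast and mesothelial markers none was called between the sexes in either direction, with 0 at an unadjusted p under 0.05 in limma's test.

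**Figure D3:**
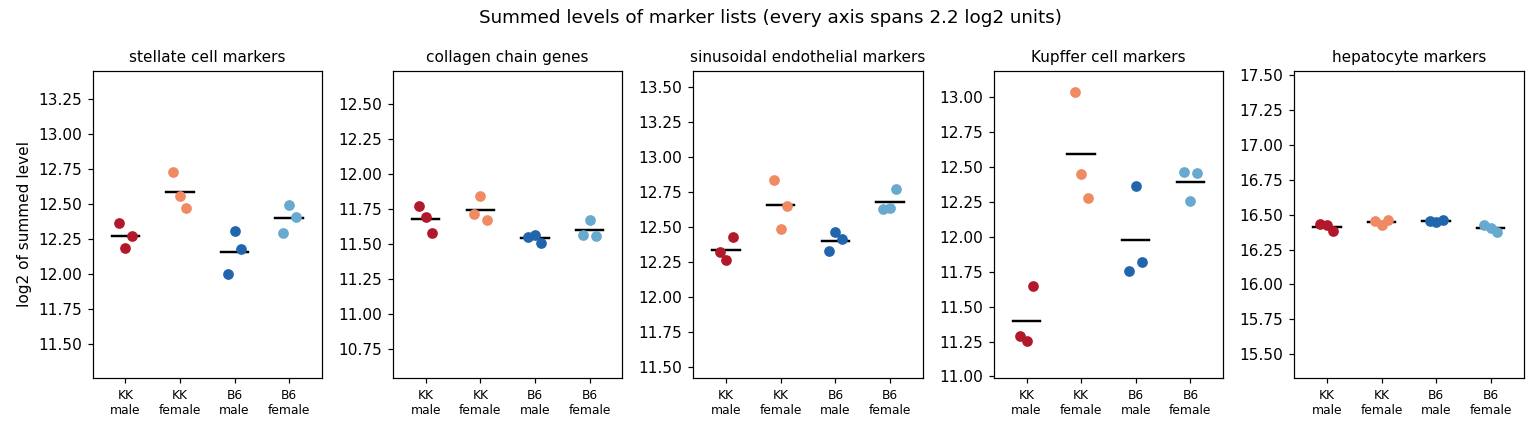
Summed level of 5 gene lists in each mouse, as the log2 of the sum of unlogged values; points are mice, bars are group means, and B6 stands for C57BL/6J. Every panel spans the same number of log2 units. The stellate cell, sinusoidal endothelial and Kupffer cell sums are lower in KK males than in KK females with no overlap. The hepatocyte sum lies between 16.38 and 16.46, with the C57BL/6J males above the C57BL/6J females.

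Col3a1, the single chain of collagen III, fell in KK. The chains of collagen I, Col1a1 and Col1a2, had negative strain differences that did not pass, and no difference between the collagens was tested. Col3a1 read 6.77, 6.82 and 6.69 in KK males and 6.86, 6.96 and 6.88 in KK females, against 6.99, 7.23 and 6.94 in C57BL/6J males and 7.11, 7.37 and 7.33 in C57BL/6J females. The strains overlapped narrowly, in that KK female 2 stood above C57BL/6J male 3, but within each sex they did not. How many of all probe sets separate 3 mice from 3 was not worked out. The difference was -0.33 (SE 0.06, 1.26-fold, adjusted p = 0.00493, interval -0.47 to -0.19), and it held without any single array.

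In females Col3a1 differed by -0.37 (SE 0.09, adjusted p = 0.0323), one of 3 calls among the 10 genes where 6.5% of probe sets were called. The female call was lost without KK male 1 (adjusted p = 0.0502), KK female 1 (0.11), KK female 2 (0.0536), KK female 3 (0.0906), C57BL/6J female 2 (0.123) or C57BL/6J female 3 (0.111). In males it was -0.29 (SE 0.09) and did not pass (adjusted p = 0.0967), in a comparison where 5.15% of probe sets and 2 of the 10 genes, Rgs5 and Lum, were called. The strain effects in males and females differed by 0.07 (interval -0.21 to 0.35, adjusted p = 0.945). The nearest genes to Col3a1 were Intu (0.0744), Pilrb2 (0.0749) and Slc9a7 (0.0858), by the same distance. A strain difference shared with Col3a1 follows from how they were picked.

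The bases before Col3a1 span chr1:45311288-45311537 on the plus strand of GRCm38.p6 in RefSeq and are shown because this is the collagen member that differed. The capitals mark its only motif match, a TATA box that begins at -117 from the start site.
Col3a1: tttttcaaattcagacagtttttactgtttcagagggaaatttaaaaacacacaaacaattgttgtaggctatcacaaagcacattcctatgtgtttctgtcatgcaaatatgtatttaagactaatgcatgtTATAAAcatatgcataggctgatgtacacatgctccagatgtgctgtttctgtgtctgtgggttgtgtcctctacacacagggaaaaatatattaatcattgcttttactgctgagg

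Col1a1 and Col1a2 encode the chains that join to form collagen I, the most abundant protein of scar tissue. Col1a1 read 7.15, 7.15 and 6.91 in KK males and 6.89, 7.24 and 7.01 in KK females, against 7.16, 7.22 and 7.0 in C57BL/6J males and 7.14, 7.22 and 6.99 in C57BL/6J females. All 4 groups covered almost the same values, and the strain difference was -0.06 with an interval of -0.23 to 0.10 (adjusted p = 0.739). Males and females differed by 0.02 (interval -0.15 to 0.18, adjusted p = 0.935).

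Col1a2 read 7.43, 7.37 and 7.05 in KK males and 7.42, 7.56 and 7.33 in KK females, against 7.49, 7.66 and 7.43 in C57BL/6J males and 7.58, 7.77 and 7.53 in C57BL/6J females. The strains overlapped, with a difference of -0.22 (SE 0.08, interval -0.39 to -0.05, adjusted p = 0.101). With the interquartile range of the arrays as a covariate it was -0.24 and passed (adjusted p = 0.0124).

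Of 19 measured collagen chain genes, 3 rose in KK and 1 fell, where 5.42% of all probe sets rose and 6.31% fell. The genes that rose were the basement membrane collagens Col4a1 (0.26, SE 0.06, adjusted p = 0.0201) and Col4a2 (0.39, SE 0.07, adjusted p = 0.00192) and the basement membrane zone collagen Col15a1 (0.42, SE 0.07, adjusted p = 0.00232). The call of Col4a1 was lost without KK male 1 (adjusted p = 0.0545), C57BL/6J male 3 (0.0521) or C57BL/6J female 1 (0.0543). Col18a1, at 0.23, did not pass (adjusted p = 0.0519). It was called higher in KK in 8 of the 9 alternatives that left out no array. After quantile or loess normalization the number that rose was 4. For Col4a1 and Col15a1 the 6 KK values lay above the 6 C57BL/6J values. The gene that fell was Col3a1, and the list median was 0.04. The summed level of the 19 genes was 11.58 to 11.77 in KK males and 11.67 to 11.84 in KK females, against 11.51 to 11.57 in C57BL/6J males and 11.56 to 11.67 in C57BL/6J females. Between the sexes limma called none of the 19, with 6 at an unadjusted p under 0.05. Without KK male 1 or C57BL/6J male 2, 1 was lower in males.

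Dcn and Lum encode decorin and lumican, small proteoglycans that bind collagen fibrils and govern their width. They are neighbours on chromosome 10, followed by Kera and Epyc. Dcn was called between the sexes and Lum between the strains; the difference between the genes was not tested, and both had negative values in both comparisons. Dcn read 9.42, 8.57 and 9.19 in KK males, against 10.25, 9.86 and 10.11 in KK females. In C57BL/6J it read 9.35, 10.13 and 9.63 in males, against 9.83, 10.63 and 10.12 in females. In KK the males were all below the females, while C57BL/6J male 2 stood above C57BL/6J females 1 and 3. Males were lower over both strains, at -0.75 (SE 0.18, 1.68-fold, adjusted p = 0.0393, interval -1.14 to -0.36). The sex difference was -1.01 in KK (SE 0.25, adjusted p = 0.0668) and -0.49 in C57BL/6J (SE 0.25, adjusted p = 0.713), neither of which passed.

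The call for Dcn over both strains was close to the threshold. It was lost without KK male 2 (-0.63, adjusted p = 0.0837), KK male 3 (0.0513), KK female 1 (0.103), KK female 3 (0.0712), C57BL/6J male 1 (0.0985), C57BL/6J male 3 (0.0849), C57BL/6J female 2 (0.0767) or C57BL/6J female 3 (0.0733). With the interquartile range of the arrays as a covariate it was -0.70 and did not pass (adjusted p = 0.0678). The strain difference of Dcn was -0.38 (SE 0.18, interval -0.77 to 0.01, adjusted p = 0.238). The nearest genes were Bmp5 (0.230), Tgfbi (0.237) and Hgf (0.249), which fell in males by 0.65, 0.59 and 0.84. They were picked for closeness to Dcn over the same 12 values, so the shared fall follows from the choice. Like that of Hgf, the calls of Bmp5 and Tgfbi were lost without KK female 1, C57BL/6J male 1, C57BL/6J male 3, C57BL/6J female 2 or C57BL/6J female 3. Without KK female 3 that of Bmp5 was lost as well, and without KK male 2 that of Tgfbi.

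Lum read 4.38, 4.04 and 4.14 in KK males and 4.46, 4.19 and 4.66 in KK females, against 4.63, 4.92 and 4.73 in C57BL/6J males and 4.83, 5.32 and 5.25 in C57BL/6J females. Within each sex every KK mouse was below every C57BL/6J mouse, and across sexes only KK female 3 reached above C57BL/6J male 1. The share of all probe sets that separate 3 mice from 3 was not worked out. All 6 KK values, and 1 of the 6 C57BL/6J values, were no higher than the Y-linked ceiling, so the KK level is at the bottom of what the array registers. With the KK mean set at that ceiling, the C57BL/6J mean was 1.22-fold above it over both sexes, 1.07-fold in males and 1.39-fold in females. These figures carry no error and are not firm lower bounds. The ceiling is a single value of another probe set, Kdm5d in KK female 1. In males the step to it was 0.10, against an SE of 0.15 for the fitted strain difference. The fitted difference of the measured values, means of 4.31 in KK and 4.95 in C57BL/6J, was -0.64 (SE 0.11, adjusted p = 0.00164), and the call held without any single array.

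In males Lum differed by -0.58 (adjusted p = 0.0453), a call lost without KK male 1 (adjusted p = 0.0531), KK male 2 (0.161), KK male 3 (0.102), KK female 1 (0.0591), C57BL/6J male 1 (0.064), male 2 (0.164), male 3 (0.112) or female 3 (0.0538). In females it was -0.70 (adjusted p = 0.0145), lost without KK female 2 (0.0565), C57BL/6J female 2 (0.0649) or C57BL/6J female 3 (0.061). The difference between the sexes was -0.31 (SE 0.11, interval -0.54 to -0.08) and did not pass (adjusted p = 0.153). The nearest genes to Lum were Pmvk (0.151), Apom (0.164) and Hsdl2 (0.166), with strain differences of -0.80, -0.66 and -0.64. That these were lower in KK follows from how they were picked.

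Of the 13 genes of the small leucine-rich proteoglycan family, Lum alone was called between the strains, and Dcn and Bgn alone between the sexes, both lower in males. Over all probe sets, 11.7% were called between the strains and 3.66% between the sexes, 2.57% lower in males. Kera and Epyc, the other neighbours in the cluster, stayed between 3.75 and 4.18 in all 12 mice, within the range of the Y-linked genes in females or just below it. In all, 6 of the 13 were at or below the Y-linked ceiling on every array, the other 4 being Ogn, Omd, Aspn and Ecm2. The count of 2 lower in males was 1 without KK male 2, KK male 3, KK female 1, C57BL/6J male 1, C57BL/6J male 3, C57BL/6J female 2 or C57BL/6J female 3, and 1 gene was higher in males without KK male 3 or KK female 2. The summed level of the family was 10.16 to 10.77 in KK males, against 11.15 to 11.47 in KK females. In C57BL/6J it was 10.51 to 11.07 in males, against 10.90 to 11.46 in females.

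Markers of other cells differed between the strains in both directions, where 5.42% of all probe sets were called higher in KK and 6.31% lower. Of 14 sinusoidal endothelial markers 1 rose in KK and 3 fell, and their sums overlapped between the strains. Of 12 Kupffer cell markers 3 fell, a count that was 6 without KK female 1 and 1 without KK male 1, KK male 2, KK female 2, KK female 3, C57BL/6J male 2, C57BL/6J female 1 or C57BL/6J female 2. The Kupffer sum averaged 11.40 in KK males against 11.98 in C57BL/6J males. In females it went the other way, with 12.59 in KK against 12.39 in C57BL/6J. Of 12 portal fibroblast and mesothelial markers limma called 0, with 1 at an unadjusted p under 0.05, and 1 rose without KK female 1 or C57BL/6J female 2. Their summed level was 9.48 to 9.61 in KK males and 9.31 to 9.62 in KK females, against 9.30 to 9.51 in C57BL/6J males and 9.30 to 9.57 in C57BL/6J females. Their part in the strain differences of Rgs5, Lum and Col3a1 was not tested.

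Mice of a group differed far more in some of these genes than in others. The pooled SD within groups was 0.37 for Lrat and Dcn, 0.34 for Ecm1 and 0.26 for Reln, against 0.12 for the median probe set. For Dcn and Lrat it was larger than in 98.9% of probe sets, and for Ecm1 larger than in 98.5%. Des, Col1a1, Col1a2 and Col3a1 had SDs of 0.11 to 0.15, near the middle of the array, with Lum at 0.21 and Rgs5 at 0.19.

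The highest and lowest values of several genes fell on the same mice. How often unrelated genes share an extreme in groups of 3 was not worked out. In all 4 groups the same mouse had the highest Dcn, Ecm1 and Reln, and in 3 of the 4 the same mouse had the lowest. The mouse with the lowest Lrat also had the lowest Ecm1 and Reln in all 4 groups, whereas the highest coincided in only 1. Dcn and Lum shared their highest mouse in 3 groups and their lowest in 4. Col1a1, Col1a2 and Col3a1 shared their highest mouse in 3 groups and their lowest in 2. In each group Col1a1 was lowest on the array with the widest interquartile range. These arrays were KK male 3 (2.87), KK female 1 (2.97), C57BL/6J male 3 (2.91) and C57BL/6J female 3 (2.97). Col1a1 was highest on the narrowest array of the group in KK males, KK females and C57BL/6J females, but not in C57BL/6J males. KK male 2 was lowest among KK males for Lrat, Reln, Ecm1, Dcn, Lum and Rgs5 and also had the narrowest interquartile range of all arrays. Without it the sex difference of Ecm1 over both strains was -0.70. The part of this array, and of the spread of the arrays in general, in the shared extremes was not tested.

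**Figure D4:**
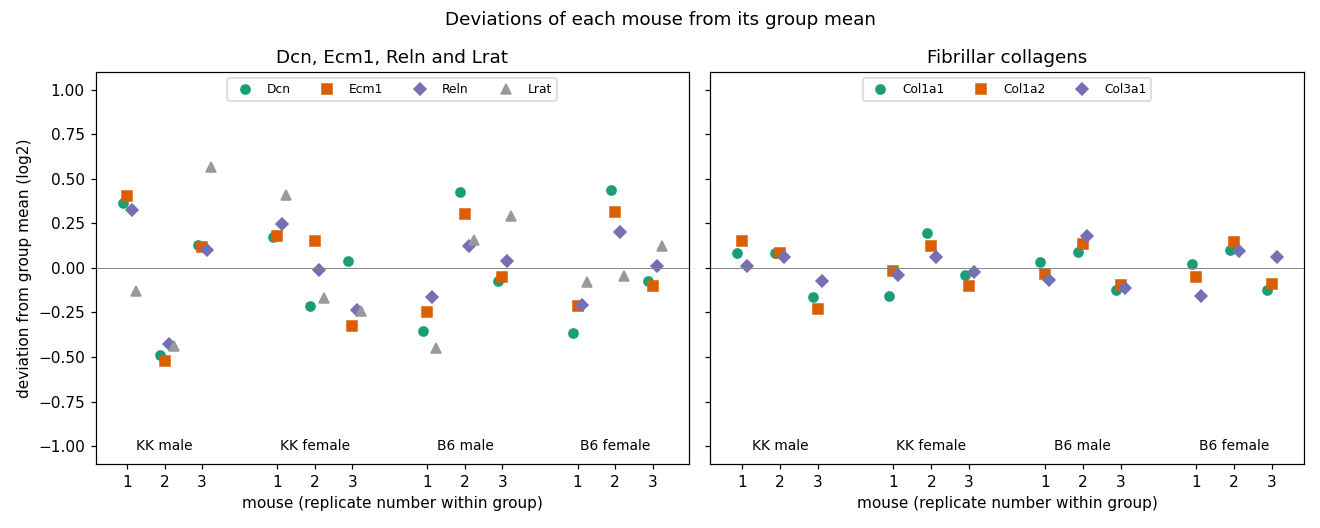
Deviation of each mouse from the mean of its group, in log2 units, for Dcn, Ecm1, Reln and Lrat on the left and for Col1a1, Col1a2 and Col3a1 on the right; the numbers name mice within a group and have no order, and B6 stands for C57BL/6J. Dcn, Ecm1 and Reln share their highest mouse in every group, while the collagens stay closer to 0.

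Of 25 measured genes of stellate cell activation and contraction, 2 rose in KK and 1 fell, a share close to that of all probe sets called between the strains (11.7%). The 2 that rose were Timp2, an inhibitor of matrix metalloproteinases (0.34, SE 0.06, adjusted p = 0.00187), and Ccn2, the connective tissue growth factor (0.41, SE 0.09, adjusted p = 0.0102). The one that fell was the myosin light chain Myl9 (-0.27, SE 0.08, adjusted p = 0.0422), a call lost without KK male 1, 2 or 3, KK female 1 or 2, C57BL/6J male 2 or 3, or C57BL/6J female 2 or 3. In males 3 of the 25 were lower than in females, where 2.57% of all probe sets were lower: Timp2 (-0.40, adjusted p = 0.00178), the membrane metalloproteinase Mmp14 (-0.50, 0.00173) and periostin, Postn (-0.43, 0.0205). The call of Postn was lost without KK male 2, C57BL/6J male 1, C57BL/6J male 3 or C57BL/6J female 3.

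The enzymes and chaperones that fold and cross-link collagen were also split between the strains, where 11.7% of all probe sets were called. Of 16 measured, the lysyl hydroxylase Plod3 (0.17, SE 0.04, adjusted p = 0.023) and the prolyl hydroxylation partner Crtap (0.33, SE 0.07, adjusted p = 0.0123) rose in KK, and the prolyl hydroxylase subunit P4ha2 fell (-0.32, SE 0.07, adjusted p = 0.00706). The number that rose was 1 without KK male 1, KK female 2, C57BL/6J male 1, C57BL/6J male 2 or C57BL/6J female 2, and the number that fell was 2 without KK female 2 or C57BL/6J female 2. The procollagen protease Bmp1 was the only one lower in males (-0.24, adjusted p = 0.0292). Without KK male 1, KK male 2, KK female 1, KK female 3, C57BL/6J male 3, C57BL/6J female 1 or C57BL/6J female 3 none was, and without KK male 3 or KK female 2 the number was 2. Without C57BL/6J male 2 Crtap was called in place of Bmp1.

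Among 29 matrix glycoprotein and basement membrane genes, 2 rose in KK and 2 fell, near the 11.7% of all probe sets called between the strains. Ltbp1, which tethers latent TGF-beta to the matrix (0.53, SE 0.08, adjusted p = 0.000829), and Sparcl1, a SPARC relative (0.52, SE 0.11, adjusted p = 0.00993), rose. Dpt, whose product dermatopontin binds decorin (-0.54, SE 0.08, adjusted p = 0.000806), and the basement membrane linker Nid1 (-0.37, SE 0.08, adjusted p = 0.00846) fell. Without KK female 3, the number that rose was 4. In males Ecm1 and fibronectin, Fn1 (-0.31, SE 0.06, adjusted p = 0.00971), were lower; without C57BL/6J male 2 the number was 4.

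Vitamin A handling, the resting task of stellate cells shared with hepatocytes, gave 4 calls among 21 genes between the strains. The share over all probe sets was 11.7%. The retinaldehyde dehydrogenase Aldh1a1 (0.20, SE 0.05, adjusted p = 0.0134) and the retinoic acid receptor Rara (0.24, SE 0.06, adjusted p = 0.0136) rose in KK. The retinol dehydrogenase Rdh10 (-0.57, SE 0.06, adjusted p = 7.67e-05) and the retinol-binding protein receptor Stra6l (-0.21, SE 0.06, adjusted p = 0.0305) fell. For Rdh10 and Rara the strains did not overlap. The call of Stra6l was lost without KK male 2, KK female 1, C57BL/6J male 1, C57BL/6J male 3, C57BL/6J female 1 or C57BL/6J female 2. The number that fell was 1 without KK male 2, KK female 1, C57BL/6J male 1 or C57BL/6J male 3, and 1 after quantile or loess normalization. Between the sexes only Rdh16 was called, lower in males (-0.42, adjusted p = 0.0219). Without KK female 1 or C57BL/6J female 3 it was not called, without C57BL/6J female 1 the number was 2, and without KK female 2 another gene was higher in males.

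The upstream signals of stellate cell activation showed no call between the strains in the main fit, but some did under several alternatives. Of 19 TGF-beta and PDGF signalling genes limma called 0, with 4 at an unadjusted p under 0.05. Without KK female 1 or C57BL/6J female 3 1 was higher, without KK male 3 1 was higher and 1 lower, and after quantile or loess normalization 1 was lower. With array weights Pdgfa and Smad7 were called higher in KK and Tgfbr1 lower. With the replicate block Smad7 was higher, and Smad4 and Tgfbr1 were lower. With the interquartile range as a covariate Pdgfa and Smad7 were higher, and Smad4 and Tgfbr1 were lower. Pdgfra was the only one called between the sexes. That call was lost without KK male 2, KK female 1, C57BL/6J male 1, C57BL/6J male 3, C57BL/6J female 2 or C57BL/6J female 3, and 2 were called without KK male 1, KK male 3 or C57BL/6J male 2.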

How the data were processed

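The deposited table holds log2 expression values, 1 per probe set and mouse, made by the authors with RMA and the affy package, per the submitters' processing notes; versions, scan dates and hybridisation batches are not given in the sources used here. RMA as usually run corrects background, equalises distributions and summarises probes. The number of arrays limits the precision. By the platform annotation 18786 probe sets had 1 symbol, 6 several and 2420 none. All 21212 probe sets of all 12 arrays were fitted with limma 3.58.1 in R 4.3.3 (lmFit, eBayes, 1 mean per strain and sex, 7 two-sided comparisons). Benjamini-Hochberg adjustment ran over all probe sets, and calls were made at an adjusted p under 0.05. Every adjusted p is limma's. For counts at an unadjusted p under 0.05, the share over all probe sets was not worked out. Shares of probe sets without overlap were worked out for 6 mice against 6 only, not for 3 against 3. SE and 95% intervals come from the fit, SD from 3 mice.

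The 10 genes and all lists were chosen with earlier results of these data known. Named are the 10 genes, up to 4 others per list with the smallest adjusted p between strains, 3 between sexes in the stellate, collagen and proteoglycan lists, the 3 nearest genes of each called member, and Kera and Epyc. Genes named outside this rule (Mmp14, Postn, Bmp1, Fn1, Rdh16, and those named for lying at the Y-linked level) were chosen after their values were seen. Promoters are RefSeq's (GRCm38.p6, 250 bases before the start, for 7 of the 10 genes). Alternatives were quantile and loess normalization, 2 filters on dim probe sets, a robust prior with an intensity trend, weights per array, a block for replicate number, a covariate for the interquartile range, a threshold of 0.01, fits of the compared groups alone, and leaving out each array. The fit was tested on simulated data.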

Additional observations from a re-analysis of the deposited data

How the results depend on the processing

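Of 1489 values of the 10 genes under an alternative, 1423 stayed on their side of the threshold, 55 lost a call and 11 gained one. The sign turned in 62 of the values, none of them called in either fit. The calls of Rgs5, and those of Lum and Col3a1 over both sexes, held in every alternative where the gene was tested; Lum was removed by both filters on dim probe sets. Over both sexes 3 genes were called without any array. In females the number was 1 at a threshold of 0.01 and 1 with only the groups compared, and 1 to 3 when an array was left out. In males it was 1 under either filter on dim probe sets, 1 at a threshold of 0.01, 4 with the interquartile range as a covariate (Lrat at 0.76, Col1a2 at -0.31 and Col3a1 at -0.32 were gained, and Lum at -0.54 was lost), and 1 to 2 when an array was left out. Between the sexes in KK it was 0 after quantile or loess normalization, 0 with the intensity trend, 0 with the replicate block, 0 with the interquartile range, 0 at 0.01 and 0 with only the groups compared, 2 (Ecm1 and Dcn) under either filter, 1 with array weights (Dcn, at -0.83, in place of Ecm1, at -0.65 with an adjusted p of 0.075), and 0 to 1 when an array was left out. Between the sexes over both strains it was 1 with the intensity trend, array weights, the replicate block or the interquartile range, 0 at 0.01, and 1 to 3 when an array was left out. Between the sexes in C57BL/6J, and for the male strain difference less the female one, it was 0 to 0. The cause was not tested, except that a filter removes genes and a smaller fit has fewer samples. Mice that share a number in different groups did not meet the criterion for pairing, every pair over 0.1: their deviations correlated at -0.36 to 0.48 (median 0.11, 10 of 18 pairs over 0.1), against -0.51 to 0.48 for mice with different numbers (median -0.05, 8 of 36 over 0.1). With the replicate block Col1a2 over both sexes (-0.22, adjusted p = 0.0184) and Col3a1 in males (0.0386) were gained, Lum in males (0.0511), Dcn over both strains (0.0548) and Ecm1 in KK (0.0592) were lost, and no other call of the 10 genes changed; 8 of 12 arrays correlated best with their own number. No scanner files were used, so background correction was not varied.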
